A study of Mus musculus with 3 samples.

Results

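The vascular basement membrane genes described here are 10 core genes of this sheet of matrix, Col4a1, Col4a2, Lama4, Lama5, Lamb1, Lamb2, Lamc1, Nid1, Hspg2 and Col18a1. They were taken by symbol from the table of normalized counts of ribosome-associated RNA of heart endothelial cells, and all 10 were among its 17583 genes. The RNA came from 3 EC-RiboTag mice, which carry Cdh5-CreERT2, a tamoxifen-inducible Cre driven by a promoter of endothelial cells, and the Rpl22tm1.1Psam allele, which Cre recombines so that ribosomes carry a hemagglutinin tag. All animals shared this genotype and formed 1 group of 3 biological replicates. Cre was induced with tamoxifen, which all animals received. The labels place the hearts 7 days after coronary ligation, whereas the study's RiboTag methods mention no infarction. A supplementary legend of the study writes RZ for the remote zone in an experiment on RNA from EC-RiboTag hearts at the same day after infarction, measured by PCR. Whether Rz in these titles means the same is not stated. The labels of the single samples give neither age nor sex. The Cre promoter is active in endothelium of several kinds, so capillary, arterial, venous, lymphatic and endocardial cells cannot be separated. With 1 condition and no input library among those analysed here, the values are levels within the precipitate, and no difference between conditions could be tested.

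Endothelial cells rest on a basement membrane that is built from a few large proteins. Collagen IV chains and laminin chains each assemble into trimers and form separate networks, which nidogen and the proteoglycan perlecan connect. In adult vessels the endothelial laminins combine alpha 4 or alpha 5 with a beta and a gamma chain, and integrins and dystroglycan on the cell surface bind the network.

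The 2 collagen IV genes share a start region. In the build GRCm39, the table gives Col4a1 at chr8:11248423-11362826 (minus strand) and Col4a2 at chr8:11362805-11499287 (plus strand), so the listed genes overlap by 22 bases at their starts. RefSeq windows of 300 bases, from 250 before to 50 after the gene start, were found for 8 of the 10 genes in the build GRCm38.p6, with a second window for Col18a1, and none for Lama4 and Lamc1. The Col4a1 window (chr8:11312777-11313076, minus strand) and the Col4a2 window (chr8:11312555-11312854, plus strand) overlap by 78 bases. They are shown because these genes are read outward from 1 region, and the Hspg2 window (chr4:137468553-137468852, plus strand) because Hspg2 had the highest count of the 10 genes. Capitals mark matches to CCAAT, the CCAAT box, and to GGGCGG, the GC box, on either strand. A match on the opposite strand shows as the reverse complement, and the motifs do not overlap.
Col4a1: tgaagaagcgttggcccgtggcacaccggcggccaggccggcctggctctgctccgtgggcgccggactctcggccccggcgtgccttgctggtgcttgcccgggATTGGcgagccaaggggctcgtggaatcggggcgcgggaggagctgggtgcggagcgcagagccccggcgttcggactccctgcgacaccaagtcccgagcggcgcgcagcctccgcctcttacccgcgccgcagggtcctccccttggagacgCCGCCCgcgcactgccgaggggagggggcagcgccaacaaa
Col4a2: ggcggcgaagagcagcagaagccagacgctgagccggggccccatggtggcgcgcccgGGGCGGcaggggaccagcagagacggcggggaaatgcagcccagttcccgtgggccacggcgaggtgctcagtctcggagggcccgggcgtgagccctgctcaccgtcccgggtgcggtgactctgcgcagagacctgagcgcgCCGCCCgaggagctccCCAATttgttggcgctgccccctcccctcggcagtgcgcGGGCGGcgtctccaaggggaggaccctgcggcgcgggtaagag
Hspg2: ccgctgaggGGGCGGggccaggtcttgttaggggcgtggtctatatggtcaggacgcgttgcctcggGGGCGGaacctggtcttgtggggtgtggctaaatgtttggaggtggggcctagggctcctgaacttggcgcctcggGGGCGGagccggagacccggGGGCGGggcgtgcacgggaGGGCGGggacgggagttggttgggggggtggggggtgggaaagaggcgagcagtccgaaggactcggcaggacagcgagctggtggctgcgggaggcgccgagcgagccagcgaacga

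The Col4a1 window held 1 CCAAT box and 1 GC box, the Col4a2 window held 1 and 3, and the Hspg2 window held 5 GC boxes and no CCAAT box. The GC box in the stretch that the collagen windows share was counted in both. A GC box was present in 7 of the 9 windows of these genes and a CCAAT box in 5, whereas the letters TATAAA were present in none. Over all 32851 windows of the same length, the GC box was present in 35.7%, the CCAAT box in 37.4% and TATAAA in 13.6%. The GC content was 44% in the Lamb2 window and between 59.7% and 74% in the others, against a median of 52.7% over all windows. The part of base composition in these shares was not tested. The matches describe letters and do not show that a factor binds there.

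Markers of the heart's cell types were read in the immunoprecipitates, which without an input library cannot measure enrichment. The study assessed enrichment by PCR, as the ratio of immunoprecipitate to input for markers of endothelial cells, cardiomyocytes, leukocytes and fibroblasts. All 12 endothelial markers had a mean normalized count of at least 1000, with a sum between 27593 and 28759 in the 3 mice. The cardiomyocyte list was also high, with all 10 markers listed, a sum between 20679 and 24237 and Ttn, the gene of the sarcomere protein titin, as its highest. Fibroblast markers summed to between 3811 and 5079 (highest Dcn), mural cell markers to between 1756 and 2512 (highest Rgs5), and leukocyte markers to between 724 and 934 (highest Lyz2). Below a mean of 10 were Cnn1 of mural cells and Cd79a of B cells, and Cd3e of T cells is not in the table analysed here. Fibroblasts, mural cells and cardiomyocytes also make basement membrane proteins, and the part of their RNA in the values below was not tested. In such bulk RNA, fewer cells of a type and less RNA per cell cannot be told apart. The deposited values summed to between 7149102 and 7268785 per mouse, and the estimated depths were between 6755000 and 7565000 reads.

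The members were among the abundant transcripts of these libraries. Their median rank by mean was 251.5 of 17583 genes, 7 of the 10 were among the first 500, and together they made up 0.28%, 0.308% and 0.336% of all normalized counts in mice 1, 2 and 3. The counts ranged from 3837 for Hspg2 to 854 for Col18a1. A longer RNA gives more reads, and the canonical transcripts of the members had a median length of 6356 bases, against 3662 for the 9356 genes of known length whose mean was 200 or more.

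**Figure D1:**
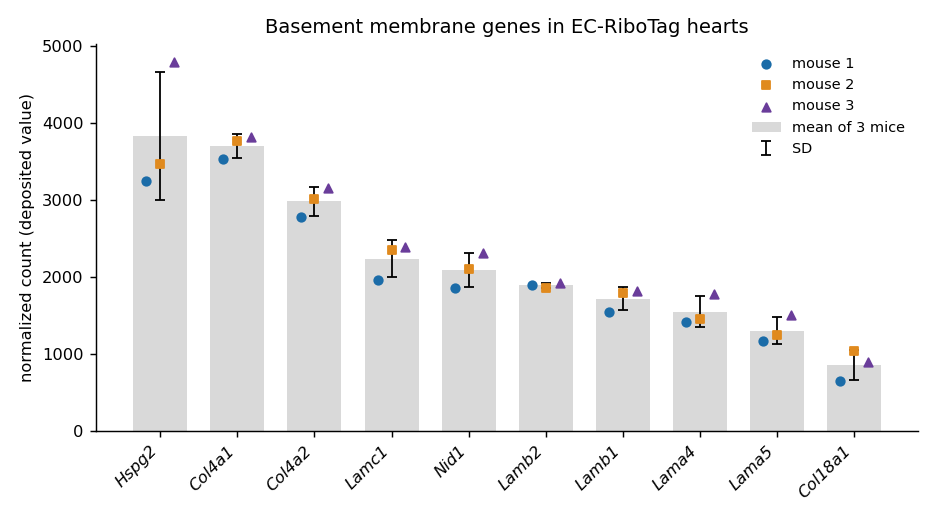
Normalized counts (deposited values, vertical axis) of the 10 basement membrane genes in order of their mean. Bars show the mean of 3 mice, whiskers the SD and points the single mice; Hspg2 was the highest with 3837 and Col18a1 the lowest with 854, and mouse 3 had the highest point for every gene other than Col18a1.

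Collagen IV, which forms the covalent network of the membrane, was represented by both chains of its common trimer. Col4a1 (ENSMUSG00000031502) had 3532, 3766 and 3816 normalized counts in mice 1, 2 and 3 respectively, a mean of 3705 ± 152 (SD, n = 3), and ranked 18 of all genes. Its partner Col4a2 (ENSMUSG00000031503) had 2786, 3015 and 3159, a mean of 2987 ± 188 (SD, n = 3), and ranked 39. The lowest value of Col4a1 lay above the highest of Col4a2, so the values of the chains did not overlap. Per base of canonical transcript, Col4a1 had 0.560 ± 0.0229 and Col4a2 0.443 ± 0.0279 (SD, n = 3), which placed them within the highest 4.08% and 9.03% of genes.

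The laminin alpha chains differ in the cells and vessels they mark and in the integrins they bind. Lama4 (ENSMUSG00000019846), found at chr10:38841511-38986184 (plus strand), encodes the alpha chain typical of endothelium. Its normalized counts were 1408, 1454 and 1782, with a mean of 1548 ± 204 (SD, n = 3). Lama5 (ENSMUSG00000015647), found at chr2:179818166-179867652 (minus strand), encodes a larger alpha chain. Its normalized counts were 1160, 1240 and 1505, with a mean of 1302 ± 181 (SD, n = 3). In both genes mouse 3 stood above the other mice, and the highest Lama5 value exceeded the lowest Lama4 value. Per base of canonical transcript the genes were farther apart, with 0.256 ± 0.0337 for Lama4 and 0.114 ± 0.0158 for Lama5 (SD, n = 3), since the Lama5 transcript has 11448 bases and that of Lama4 6046. Lama5 was the lowest of the 10 members on this scale.

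The beta and gamma chains complete the laminin trimer. Lamb1 (ENSMUSG00000002900, chromosome 12, plus strand, from 31315233 to 31379643) had normalized counts of 1547, 1785 and 1819, a mean of 1717 ± 148 (SD, n = 3). Lamb2 (ENSMUSG00000052911, chromosome 9, plus strand, from 108356935 to 108367729) had 1896, 1858 and 1923, a mean of 1892 ± 32.7 (SD, n = 3). Lamb2 was the steadiest member, and each of its values lay above each value of Lamb1. Lamc1 (ENSMUSG00000026478, chromosome 1, minus strand, from 153094668 to 153208532), the gamma chain of most laminins, had 1958, 2353 and 2392, a mean of 2234 ± 240.1 (SD, n = 3), with mouse 1 apart from the other mice. Per base of canonical transcript, Lamb2 had 0.336 ± 0.00579, Lamb1 0.296 ± 0.0256 and Lamc1 0.282 ± 0.0303 (SD, n = 3).

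Nidogen 1 and perlecan link the collagen and laminin networks. Nid1 (ENSMUSG00000005397, chromosome 13, plus strand, from 13612136 to 13686854) had normalized counts of 1861, 2102 and 2309, a mean of 2091 ± 224 (SD, n = 3), or 0.343 ± 0.0368 per base. Of the stretches of read length in its exons, 3.49% occur a second time in the genome without mismatch, and the authors removed reads that map to several places. No such stretch was found for the 9 other members. Hspg2 (ENSMUSG00000028763, chromosome 4, plus strand, from 137196080 to 137297941), which encodes perlecan, had 3250, 3469 and 4793, a mean of 3837 ± 835 (SD, n = 3). Mouse 3 stood far above the others in Hspg2, and the mean without it would rank the gene 28 in place of 14. Its canonical transcript of 14502 bases is the longest of the 10, and per base it had 0.265 ± 0.0576 (SD, n = 3). Col18a1 (ENSMUSG00000001435, chromosome 10, minus strand, from 76888012 to 77002382) encodes the collagen from whose end endostatin is released. Its normalized counts were 642, 1029 and 891, a mean of 854 ± 196 (SD, n = 3), or 0.153 ± 0.0351 per base. It was the only member with its highest value in mouse 2.

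Ordered by level per base of canonical transcript, the members ran from Col4a1 over Col4a2, Nid1, Lamb2, Lamb1, Lamc1, Hspg2, Lama4 and Col18a1 to Lama5. Of the 9 neighbouring pairs in this order, 6 kept it in every mouse, with a mean log2 ratio larger than its SD. The order was taken from the means of these same mice, so agreement with it is partly built in. The remaining pairs, Nid1 with Lamb2, Lamc1 with Hspg2 and Hspg2 with Lama4, changed order between mice and differed by less than their spread. The median level per base of the members was 0.289, against 0.176 for the 9356 genes, and 8 of the 10 lay above that median. Col18a1 and Lama5 lay below it. By coding length this turned, with a median of 0.336 for the members against 0.430 for the 9236 genes with a coding length, and 4 of the 10 above the median. By all annotated exons the medians were 0.219 and 0.0916, and all 10 members lay above. The order among the members also depends on the length. Per base of all annotated exons, Lama4 dropped from 0.256 to 0.0985 and Lamb1 from 0.296 to 0.160, and per base of coding length Col4a1 had 0.740 and Nid1 0.560. Col4a1 and Col4a2 were the first and second with each of the 3 lengths.

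**Figure D2:**
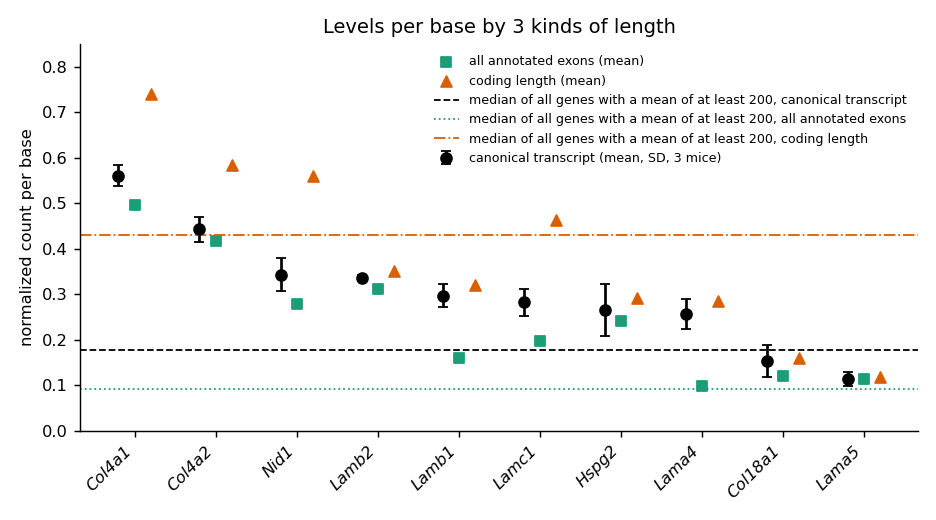
Normalized counts per base (vertical axis) of the 10 genes by 3 kinds of length. Black points show the mean and SD of 3 mice per base of canonical transcript, squares and triangles the means per base of all annotated exons and of coding sequence, and the lines in the same colours the medians over all genes averaging 200 or more for each kind of length (0.176, 0.0916 and 0.430); 8, 10 and 4 of the 10 members lie above their own line, Col4a1 and Col4a2 are highest by each length, while Lama4 changes its place.

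Chains that assemble with each other, chains that can replace each other and related linkers were compared by the log2 ratio of their levels per base within each mouse, for 10 ratios in all. Col4a1 exceeded Col4a2 in all 3 mice, with log2 ratios of 0.37, 0.35 and 0.30 and a mean of 0.34 ± 0.04 (SD, n = 3), or 1.27-fold. Counting alone, without allowing for the removal of duplicates, would give an SD of 0.035, against the 0.036 measured. Lama4 exceeded Lama5 by a log2 ratio of 1.17 ± 0.03 (SD, n = 3), or 2.25-fold, where counting alone would give an SD of 0.05. This direction depends on the length used, since per base of all annotated exons the log2 ratio was -0.21. Of the 45 pairs of members, 2 (Lama4 with Lama5 and Lamb1 with Lamc1) had an SD at or below that of counting. With 3 mice such an SD is itself imprecise, and none of these counting SDs allows for the removal of duplicates. Lamb1 was below Lamb2 with a log2 ratio of -0.18 ± 0.13 (SD, n = 3), and mouse 1 was the farthest from 0 with -0.33. With these 3 mice the smallest two-sided p of the exact sign-flip permutation test is 0.25, so no ratio could pass a threshold of 0.05. Of the 10 ratios 9 reached this p (0.278 after Benjamini-Hochberg adjustment over the 10, exact test).

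The sums of the laminin chains were unequal per base. Lamc1 had 0.282 against 0.632 for Lamb1 and Lamb2 together, a log2 ratio of -1.17 ± 0.10 (SD, n = 3). Lama4 and Lama5 together had 0.370, a log2 ratio to the beta chains of -0.78 ± 0.14 (SD, n = 3). In each mouse the beta chains were thus the most abundant RNA of the trimer on this scale, a statement on RNA and not on protein. Per base of coding sequence the log2 ratio of Lamc1 to the beta chains was -0.54, and per base of all annotated exons it was -1.26.

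The linkers were compared with their relatives outside the 10 genes. Nid1 exceeded Nid2, the second nidogen, by a log2 ratio of 0.46 ± 0.19 (SD, n = 3), and exceeded Lamc1, the chain that nidogen binds, by 0.28 ± 0.06 (SD, n = 3). The second of these directions rests on the division by length, without which the log2 ratio of Nid1 to Lamc1 was -0.10. Col18a1 was below Col15a1, the other collagen of its family, with -0.80 ± 0.12 (SD, n = 3). Hspg2 exceeded Col18a1, which also carries heparan sulfate, by 0.80 ± 0.37 (SD, n = 3), with the lowest single value, 0.38, in mouse 2. Hspg2 and Agrn, the gene of the heparan sulfate proteoglycan agrin, were not separated per base of canonical transcript. Their log2 ratio was -0.03, -0.01 and 0.50, with a mean of 0.15 ± 0.30 (SD, n = 3; exact sign-flip permutation test, two-sided p = 1), and without mouse 3 it was -0.022. This depends on the length used. Over all 3 mice the mean was 0.10 by coding length, 0.48 by all annotated exons and 1.21 without division by length.

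**Figure D3:**
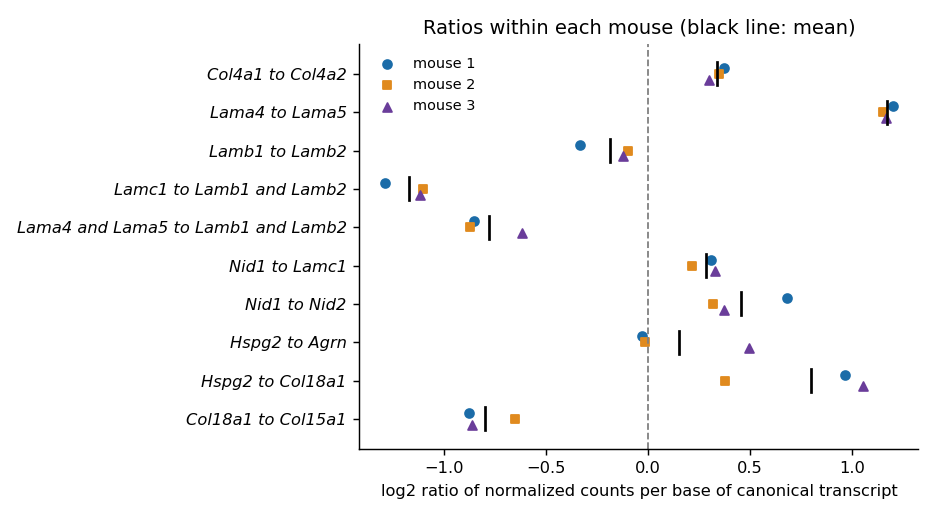
Log2 ratios of normalized counts per base of canonical transcript within each mouse (horizontal axis) for 10 ratios. Points are single mice and black lines the means; the SD over the mice was 0.04 for Col4a1 to Col4a2 and 0.03 for Lama4 to Lama5, against 0.30 and 0.37 for Hspg2 to Agrn and Hspg2 to Col18a1.

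The spread between mice differed among the members. The coefficient of variation was lowest for Lamb2 with 1.73% and highest for Col18a1 with 23% and Hspg2 with 21.8%. The median was 10.7%, against 7.37% for the 9358 genes whose mean was 200 or more, and against 5.94% and 5.26% for genes with a mean of 1000 to 2000 and of 2000 to 4000. A coefficient over 20% was found in 2 of the 10 members, beside 8.00% of the 9358 genes. Counting error, also without allowing for the removal of duplicates, was between 1.61% and 3.43% for single members. The spread was above this counting error for all members other than Lamb2. The members' higher median was lost when mouse 1 or mouse 3 was left out. Without mouse 1 it was 4.97% for the members against 6.02% for all genes of this level, and 1 member, Hspg2, was over 20%, beside 4.84% of genes. Without mouse 3 it was 5.15% against 5.71%, and 1 member, Col18a1, was over 20%, beside 8.71% of genes.

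**Figure D4:**
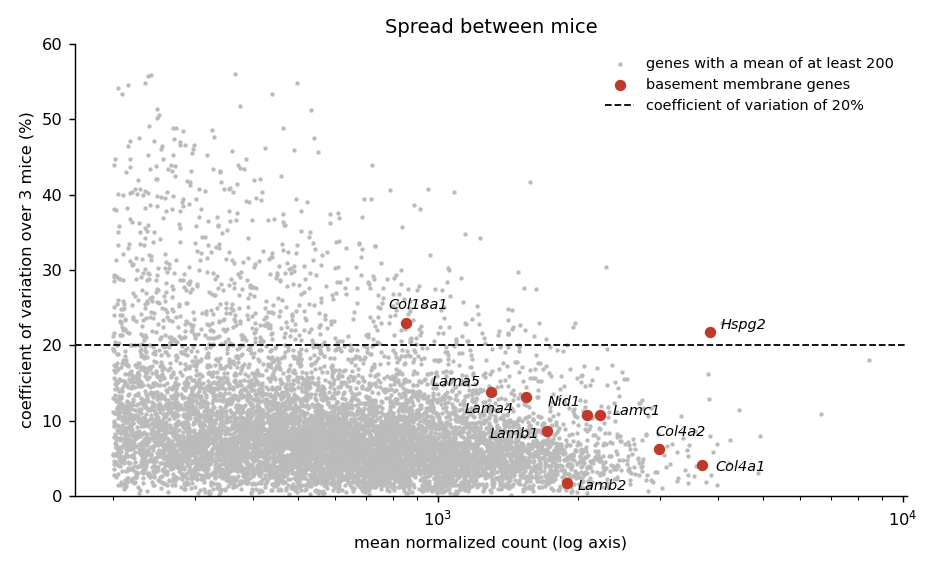
Coefficient of variation over 3 mice in percent (vertical axis) against the mean normalized count (horizontal, log axis) for all genes whose mean was 200 or more in grey and the basement membrane genes in red. Hspg2 and Col18a1 lie above the dashed line at 20% and Lamb2 lies at 1.73%; 6 genes above 60% are outside the plot.

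Most members differed between the mice in the same direction. Of the 10, 9 were highest in mouse 3, beside 29.7% of the 9358 genes, and 9 were lowest in mouse 1, beside 31.8%. The lead of mouse 3 over mouse 2 was small for Col4a1 (3816 against 3766), Lamb1 (1819 against 1785) and Lamc1 (2392 against 2353). For Lamb2 the lead over mouse 1 was small (1923 against 1896). The median ratio of mouse 3 to mouse 1 was 1.23 for the members and 0.986 for the 9358 genes. The ratio was 1.47 for Hspg2, 1.39 for Col18a1, 1.30 for Lama5 and 1.27 for Lama4, and it was 1.08 for Col4a1. When the libraries were scaled to equal totals, 7 members were highest in mouse 3, beside 26.0% of all genes at the same minimum mean. Transcript length moved with this pattern. Among the 2067 genes with transcripts as long as those of the members, from 5595 to 14502 bases, 54.9% were highest in mouse 3 and 46.5% lowest in mouse 1, and among genes of 2000 to 4000 bases 20.3% and 29.8%. For the 685 genes as long as the members and with a mean of 1000 or more, the shares were 57.4% and 38.7%. For the 299 genes of 10000 bases or more, a length only Hspg2 and Lama5 of the members reach, they were 68.6% and 61.2%. The median log2 ratio of mouse 3 to mouse 1 was 0.11 for the 2067 genes, 0.08 for the 685 and 0.30 for the members. Across the 9356 genes, which share the same libraries, the Spearman correlation of the log2 ratio of mouse 3 to mouse 1 with canonical length was 0.40, and with GC content it was -0.01.

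Other lists moved with the mice as well. The median log2 deviation from the mean of the 3 mice was -0.15, 0.01 and 0.10 in mice 1, 2 and 3 for the members. It was -0.26, 0.11 and 0.25 for fibroblast markers, -0.41, 0.10 and 0.18 for mural markers and -0.43, 0.21 and 0.15 for leukocyte markers, so that mouse 1 was lowest in all 3 lists. It was 0.02, 0.01 and -0.04 for endothelial markers and 0.09, 0.00 and -0.08 for cardiomyocyte markers. Of the 10 cardiomyocyte markers 3 were highest in mouse 3, a share near the 29.7% of all genes averaging 200 or more. The sum of that list was 20679, 21339 and 24237, whereas its median was 1177.5, 1114 and 1078. Ttn, its highest gene, had 7379, 7743 and 10190 normalized counts, and Ryr2 had 3280, 3667 and 4486. Their canonical transcripts have 107543 and 16853 bases. Mouse 1 also differed from the others in sex-linked genes, with 4 normalized counts of Xist against 618 and 869, and 1080 of Ddx3y against 3 and 1. The part of transcript length, of other cell types, cardiomyocytes included, and of sex in the members' differences was not tested.

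**Figure D5:**
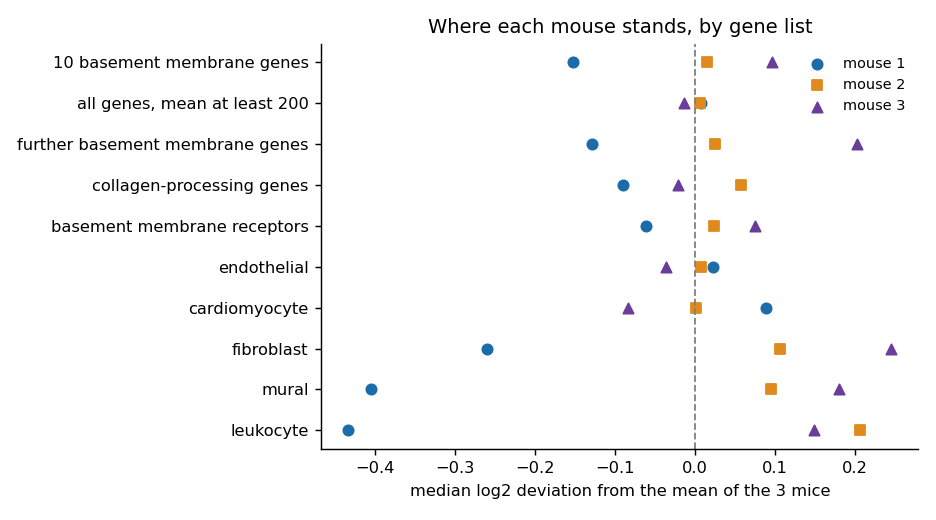
Median log2 deviation from the mean of the 3 mice (horizontal axis) for the basement membrane genes, all genes averaging 200 or more, the pathway lists and the marker lists. Each point is 1 mouse; mouse 1 lies lowest for the basement membrane genes with -0.15 and for fibroblast, mural and leukocyte markers, while endothelial markers lie between -0.04 and 0.02.

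Among 18 further genes of basement membranes, 16 had a mean of at least 10 and 5 a mean of at least 1000. These 5 were Sparc, a collagen-binding matricellular protein, with 1875 ± 107, Agrn with 1635 ± 45.6, Tinagl1, a matrix protein of the vessel wall, with 1578 ± 72.8, Col15a1 with 1516 ± 261 and Nid2 with 1241 ± 269 normalized counts (SD, n = 3). Sparc had 0.812 per base of canonical transcript, more than any of the 10 members. By coding length it was also above them with 2.07, but by all annotated exons it had 0.440, below Col4a1 with 0.496. Nid2 and Col15a1 shared the low value in mouse 1, with 934, 1353 and 1435 for Nid2 and 1215, 1667 and 1666 for Col15a1. Smoc1, a calcium-binding matrix protein, had 670, 432 and 1059, and Ntn4, a netrin that binds laminin, had 406, 332 and 654. Smoc2, the paralogue of Smoc1, had 160 ± 15.8 (SD, n = 3).

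The chains typical of other cell types or tissues were low. Lama2, the alpha chain of muscle laminin, had 320 ± 26.6 (SD, n = 3), or 0.0331 per base, below Lama5 as the lowest member. Lama3 and Lamb3, chains of epithelial laminin, had means of 144 and 44, Lamc3 had 2 and Lama1 is not in the table analysed here, which lists no gene whose values are all below 4. Of the collagen IV chains of kidney, lung and other special membranes, Col4a3 had 97, 65 and 156, Col4a4 151, 111 and 320, Col4a5 74, 99 and 130, and Col4a6 7, 18 and 34 normalized counts. These 4 genes had means between 19.7 and 194, and each was highest in mouse 3. Their canonical transcripts fall in the members' range of 5595 to 14502 bases. Of the 2067 genes of that length averaging 200 or more, a limit these 4 do not reach, 54.9% were highest in mouse 3.

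Genes that fold, modify, export and crosslink collagen were all present, with 18 of 18 at a mean of at least 10 and 7 at 1000 or more. The highest was Pxdn, the peroxidase that crosslinks collagen IV, with 2165, 2402 and 2644 and a mean of 2404 ± 240 (SD, n = 3). Plod1, a lysyl hydroxylase, had 1828 ± 109.1, Serpinh1, the collagen chaperone, 1655 ± 106, and P4hb, a subunit of prolyl hydroxylase, 1648 ± 108 (SD, n = 3). Of the 17 genes averaging 200 or more, 5 were highest in mouse 3, a share near the 29.7% of all genes. Receptors for the basement membrane were listed in full, with 10 of 10 at a mean of at least 10. Itga6, a laminin-binding integrin subunit, was the highest with 2807 ± 60.2, followed by Itga1, a collagen-binding subunit, with 2457 ± 181, their partner Itgb1 with 2433 ± 97.6 and Bcam, a receptor for laminin alpha 5, with 1890 ± 77.9 (SD, n = 3).

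The genes nearest in level over the 3 mice were sought among 9346 other genes by the root mean square difference of log2 levels per base. For Col4a1 these were Tnfaip1, Myh6 and Nrp2, with differences of 0.03, 0.04 and 0.05. For Lama4 they were Asap1, Ppard and Slc4a2, with 0.03, 0.04 and 0.05. For Hspg2 they were Sptan1, Cdc42bpb and Flt4, with 0.07, 0.09 and 0.10. This likeness covers 3 samples and says nothing of function.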

How the data were processed

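Ribosome-associated RNA of hearts of 3 EC-RiboTag mice was sequenced from 1 end, with a read length of 72 bases. The authors trimmed with Trimmomatic 0.39, aligned to mm39 with STAR 2.7.11a, removed duplicates with Picard 3.1.1 and also multi-mapping, ribosomal and mitochondrial reads, counted exonic reads by strand with featureCounts 2.0.4 and normalized with DESeq2 1.36.0. The deposited values are a score: counts that the authors divided by the size factor of each library, then rounded to whole numbers, not raw counts. Replicates are separate mice per the labels.

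Depth was estimated from the whole numbers between 5 and 120 that rounding leaves empty or doubles, which gave 0.977, 1.06 and 0.961 normalized counts per read. Duplicate removal limits a position to about 1 read, so high levels per base are compressed. Levels are means and SDs. Levels per base use GENCODE vM39 canonical transcripts of GRCm39 (17475 of 17583 identifiers matched), an annotation newer than that of the authors; its Col4a2 transcript begins upstream of the listed gene start. Ratios were tested by an exact sign-flip permutation test. The scripts were tested on simulated data. The alternatives were other scalings, lengths, limits, a correction for duplicates and leaving out each mouse. Named were the members, the further basement membrane genes (1 is not reported here), the 4 highest genes of the other pathway lists, the highest, absent or lowest markers and the 3 genes nearest in level to Col4a1, Hspg2 and Lama4. The members and lists were chosen with earlier results of these data known. Protein features were not analysed here. Promoter windows are RefSeq's, GRCm38.p6. Python 3.11.15, numpy 2.4.6, pandas 2.3.3 and matplotlib 3.10.9 were used.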

Additional observations from a re-analysis of the deposited data

How the results depend on the processing

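Of the 153 recomputed values that answer a comparison, 142 were counted as the same. For counts this meant staying within 1.5 times. For ratios it meant keeping the direction, even where a ratio moved by more than its SD. The log2 ratio of Lamb1 to Lamb2 moved from -0.18 to -0.96 per base of all annotated exons. That of Lamc1 to the beta chains moved from -1.17 to -0.54 by coding length. Of the values of single genes, 157 moved by less than the spread and 24 did not. Some of the 142 could not have moved, so that count overstates how stable the results are. The factor of a library cancels in a ratio within a mouse, so other scalings cannot change the ratios or the order of neighbours. Another limit on the coefficient of variation, or a lower minimum mean, likewise cannot move the members' median coefficient. The ratio of Lama4 to Lama5 turned to -0.21 per base of all annotated exons, that of Nid1 to Lamc1 to -0.10 without division by length, and that of Hspg2 to Agrn to -0.022 without mouse 3, with a range of -0.022 to 0.24 over single mice left out. The members' median rank per base, 25.3% of eligible genes, was 12.7% by all annotated exons and 60.7% by coding length. With single mice left out, the median coefficient of variation lay between 4.97% and 14.7%, and the members over 20% numbered 1 or 2. Counting only genes with a mean of at least 1000, 1 of 9 members was over 20%, beside 2.77% of all such genes. In a separate setting, 8 further basement membrane genes had a mean of at least 200. Correction for reads lost as duplicates, which assumes uniform read starts, raised Col4a1 from 0.560 to 0.826 per base and its log2 ratio to Col4a2 from 0.34 to 0.49. The background of genes with transcripts as long as the members' was chosen after seeing the data. No paired analysis was possible because all samples belong to 1 group. Exact tests over 3 mice cannot pass 0.05, so their p-values do not measure stability.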
